A study of Vitis vinifera with 2 samples.

Results

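Lipoxygenases are dioxygenases that add oxygen to polyunsaturated fatty acids released from membranes. Their hydroperoxide products are the start of the oxylipins, a group of plant signals and defence compounds. One branch, best described in Arabidopsis and tomato, passes through allene oxide synthase and allene oxide cyclase to 12-oxophytodienoic acid, which OPR3, a 12-oxophytodienoate reductase of the peroxisome, reduces on the way to jasmonate, the hormone of wound responses. Other branches give the leaf aldehydes of cut grass odour and antimicrobial fatty acid derivatives.

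The genes described here are all those named LOXA, LOXO, LOX or OPR3 in the transcript tables, 4 of 30485 genes, with 5 of 53908 transcript models. RNA was sequenced from the wounded tissue of grape (Vitis vinifera) in 2 libraries. The treated wound was given 10 µL of Yarrowia lipolytica suspension, a yeast, and the control wound as much sterile water. Both were held at 20 °C and sampled 3 days after treatment. The strain label names the yeast for the water control too, so the groups follow the sample titles. The labels give no cultivar, no wild or mutant genotype and no number of berries, and the control was itself wounded, so what wounding alone did to these genes was not measured. With 1 library a group there was no test, no p-value and no estimate of the spread between berries. Intervals in brackets are 95% intervals that cover counting error only, and PCR copies among the reads are not independent molecules.

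Depth came to 19010746 fragment equivalents for the control and 20540964 for the treated library, where 1 equivalent is 300 aligned bases. Levels are FPKM (fragments per kilobase, scaled for library size), so they can be set beside each other between genes. Genes are called higher or lower where log2((treated FPKM + 1)/(control FPKM + 1)) was at least 1 in size, which is 2-fold on that scale. Among 16040 measured genes, those that reached an FPKM of 1 in one library or both, 6.26% were higher by this rule and 3.66% lower, and the median log2 ratio was -0.28. Higher genes were 63.1% of those past 2-fold, or 82.7% with the treated library rescaled to a median ratio of 0. A pseudocount of 0.1 turned the majority, to 44.8% higher (1251 genes against 1540 lower). Among the 8330 genes that reached an FPKM of 10, as LOXO, LOXA and OPR3 did, the shares were 8.33% and 2.79%. The 22 symbols of photosystem or chlorophyll-binding genes in the tables summed to 29.0 FPKM in the control and 23.0 with the yeast, with no single gene above 7.45 FPKM. Markers of skin, pulp, seed and vascular tissue were not checked here. In such bulk tissue, fewer cells of a type and less RNA per cell cannot be told apart.

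Of the 4 genes, LOXO was higher in the treated library, LOXA was lower, and LOX and OPR3 lay above the control but within 2-fold. That is 1 gene of 4 counted as higher, against 6.26% of all measured genes, and 1 of 4 counted as lower, against 3.66%, and with 4 genes such shares describe these genes only. LOXA was no longer counted as lower with treated values rescaled by the median, trimmed mean, upper quartile or total FPKM. The opposite direction of LOXO and LOXA was known when the genes were chosen. The median log2 ratio of the 4 genes was 0.54.

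**Figure D1:**
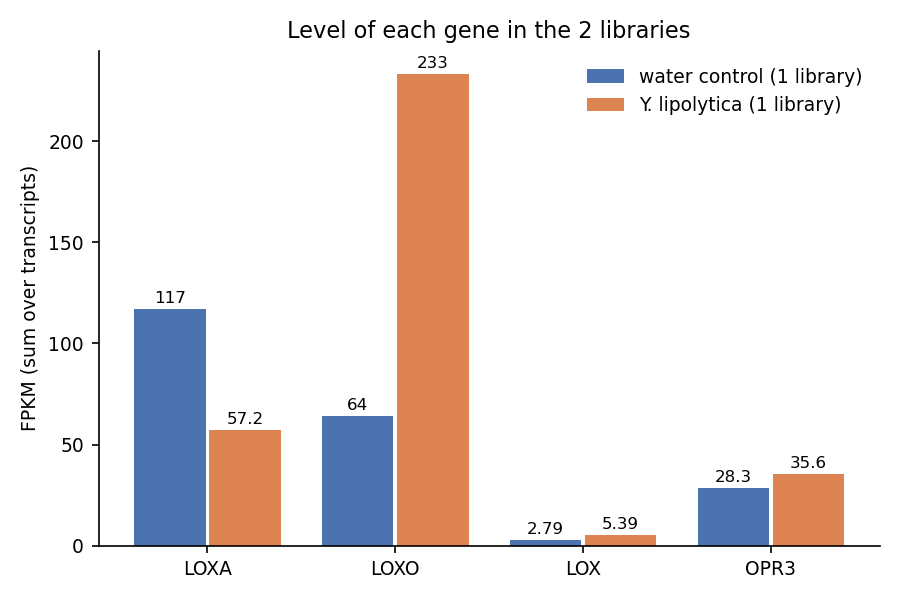
FPKM of LOXA, LOXO, LOX and OPR3, summed over the transcripts of each gene, in the water control and the Y. lipolytica library; each bar is 1 library, so no error bar is drawn. LOXA is the taller lipoxygenase in the control at 117 FPKM, and LOXO in the treated library at 233 FPKM.

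LOXO, a lipoxygenase on chromosome 9 (811653 to 816676, plus strand, in the coordinates of the files, which name no build), had a level of 64.0 FPKM in the control library and 233 FPKM in the treated one. The treated value was 3.64 times the control (3.51 to 3.78), and the log2 ratio of 1.85 lay 2.12 above the median of all measured genes. It rested on 3508 control and 13680 treated fragment equivalents, so counting error is small beside the difference. By level, LOXO ranked 1966 in the control among the 16040 measured genes and 546 with the yeast. Its log2 ratio was above that of 97.7% of measured genes. Of the 546 genes at least as abundant as LOXO with the yeast, LOXO included, 70 had a ratio as large as its own or larger.

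LOXO has 2 transcript models, and both were higher with the yeast. The shorter, with 8 exons and 2751 bases, carried nearly all of the gene. Its level was 59.9 FPKM in the control and 219 with the yeast, a ratio of 3.66 (3.52 to 3.81). The longer, with 9 exons and 3257 bases, begins 379 bases further upstream and ends 260 bases further downstream than the shorter. Its level was 4.14 FPKM in the control and 13.7 with the yeast, a ratio of 3.30 (2.88 to 3.80). For comparison, 8.08% of 23481 measured transcripts were at least 2-fold higher. The longer model made up 6.47% of LOXO FPKM in the control and 5.87% with the yeast, so the higher level of LOXO came with little difference in the make-up of its transcripts. The way fragments common to both models were divided was not given in the sources used here.

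LOXA, a lipoxygenase on chromosome 6 (1875239 to 1881821, minus strand), differed in the other direction. Its level was 117 FPKM in the control library and 57.2 FPKM in the treated one. The treated value was 0.489 times the control (0.469 to 0.510), an interval that holds 2-fold lower, from 6491 and 3408 fragment equivalents. Its log2 ratio was -1.02, just past the 2-fold rule and 0.74 below the median of all genes. Only 3.40% of measured genes had a lower ratio, although LOXA was within 2-fold when the treated library was rescaled to a median ratio of 0 (log2 ratio -0.70) or by the upper quartile (-0.94). By level it ranked 1067 in the control and 2176 with the yeast. Of the 1067 genes at least as abundant as LOXA in the control, itself included, 15 had a ratio as low or lower. The gene has a single transcript model, of 9 exons and 2822 bases, and its mean coverage per base was 690.1 in the control and 362 with the yeast. Among all measured transcripts, 7.21% were at least 2-fold lower.

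**Figure D2:**
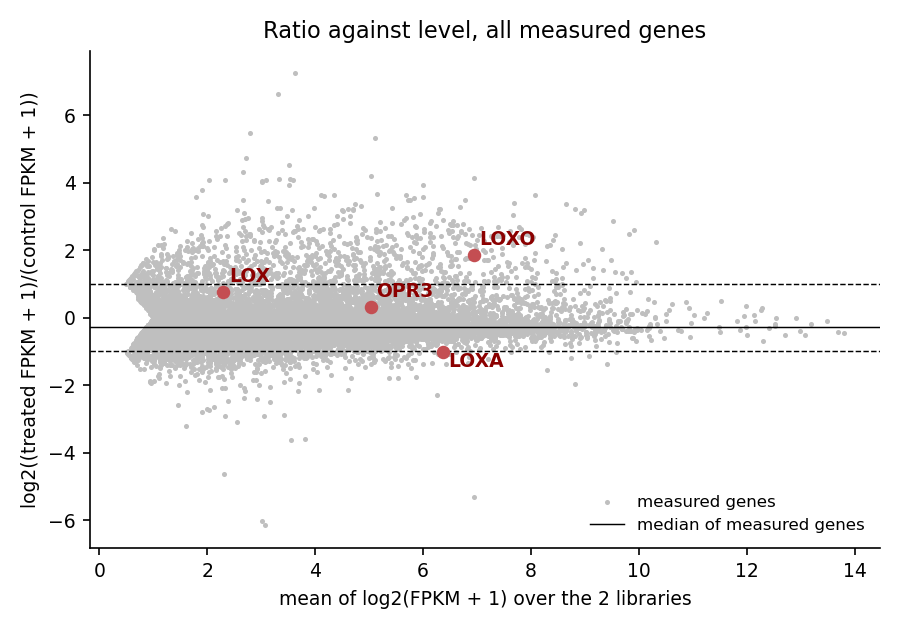
Each grey point is 1 of 16040 measured genes; the x axis is the mean of log2(FPKM + 1) over the 2 libraries and the y axis the log2 ratio of treated to control with a pseudocount of 1; dashed lines mark 2-fold and the solid line the median of -0.28. LOXO sits above the upper dashed line at 1.85, LOXA on the lower one at -1.02, and LOX (0.75) and OPR3 (0.32) between them.

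Among the 3 measured genes named as lipoxygenases, the most abundant one thus differed between the libraries. Lipoxygenase genes without such a name were not looked for, so the shares below are of these 3 genes only. In the control, LOXA made up 63.6% of their summed FPKM and LOXO 34.9%. In the treated library, LOXO made up 78.8% and LOXA 19.4%. LOXO was present at 0.548 times the level of LOXA in the control and at 4.07 times in the treated library. This within-library ratio with the yeast was 7.44 times that in the control (7.03 to 7.86, counting error only). It cannot be moved by any rescaling of 1 library against the other. The opposite direction of the pair was known when it was chosen, so the size of this value is a description and no separate support. The sum of the 3 genes was 184 FPKM in the control and 295 with the yeast, a ratio of 1.61 (1.57 to 1.65). In this sum LOXO was 169 FPKM higher with the yeast and LOXA 59.7 FPKM lower.

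**Figure D3:**
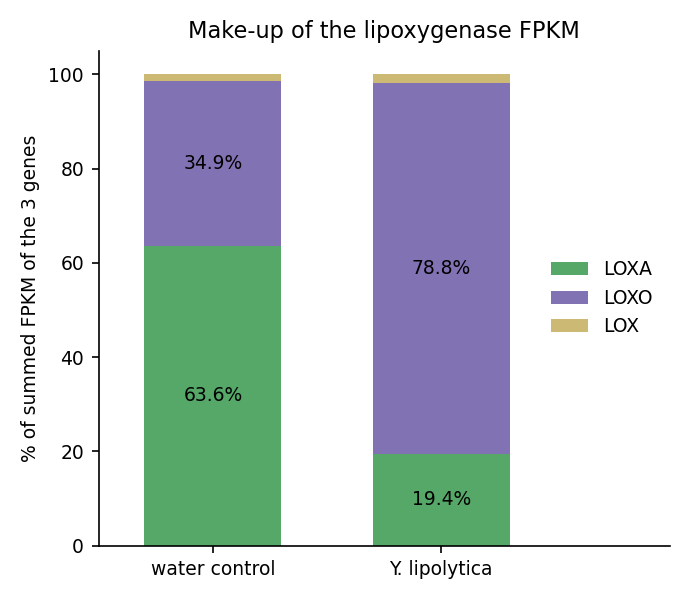
Share of LOXA, LOXO and LOX in the summed FPKM of these 3 genes, the measured ones named as lipoxygenases, in percent, in each library (1 library per bar). LOXA holds 63.6% in the control and LOXO 78.8% in the treated library, while LOX, the thin band at the top, holds 1.52% and 1.82%.

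LOX, which has the synonyms LOX1 and LOXC in the reference gene table, is the scarce lipoxygenase of the set. It lies on chromosome 14 (3311605 to 3315824, plus strand) and has a single transcript model of 9 exons and 2731 bases. Its level was 2.79 FPKM in the control and 5.39 with the yeast, from 150.1 and 311 fragment equivalents. The treated value was 1.93 times the control (1.58 to 2.36), an interval that holds 2-fold. On the scale with the pseudocount the log2 ratio was 0.75, above that of 91.7% of measured genes, and rescaling the median ratio to 0 put it at 1.03, past 2-fold. Its level in the control was 41.9 times below that of LOXA and 22.9 times below that of LOXO.

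OPR3, on chromosome 11 (973706 to 977895, minus strand), acts downstream of lipoxygenase in jasmonate synthesis. Its level was 28.3 FPKM in the control and 35.6 with the yeast, a ratio of 1.26 (1.15 to 1.39). The difference exceeded counting error, from 762 and 1031 fragment equivalents, and was within 2-fold. Its log2 ratio of 0.32 was above that of 85.0% of measured genes, of which 73.5% lay below 0. LOXO therefore differed more between the libraries than OPR3 did: the ratio of OPR3 to LOXO was 0.442 in the control and 0.153 with the yeast, 0.346 times the control (0.313 to 0.383). The single OPR3 model has 5 exons and 1369 bases, and its introns take up most of the 4190 bases it spans.

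The 3 lipoxygenase loci have a like structure in the models. LOXA, LOX and the longer LOXO model have 9 exons each, and the lengths of all 4 lipoxygenase models lie between 2731 and 3257 bases. They differ in their introns: those of LOXA sum to 3761 bases, those of the longer LOXO model to 1767 and those of LOX to 1489. With 3 loci, no relation of exon number or transcript length to the direction of the difference can be shown or denied. The spans of the 4 loci are the same, to within 1 base, in a RefSeq gene table of another grape assembly, at 6583 bases for LOXA, 5025 for LOXO, 4220 for LOX and 4190 for OPR3. LOXA and LOXO both carry the synonym LOX2 there, so that synonym does not tell the higher gene from the lower one.

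None of the 4 loci overlapped another gene model. Among the 3 nearest measured genes on each side of LOXO, log2 ratios ran from -1.09 to 0.47, so none approached 1.85. Going up the chromosome, TRNAS-GCU stood at 21.1 and 29.5 FPKM, LOC100246271 at 41.9 and 29.1 FPKM, and LOC100246433 at 3.39 and 4.10 FPKM. On the far side of LOXO, the nearest gene, LOC100263428, was 12.7 kb away and lower, at 2.12 and 0.469 FPKM. LOC100242867 stood at 5.43 and 2.90 FPKM and LOC100265158 at 4.08 and 1.68 FPKM, both within 2-fold on the scale with the pseudocount.

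On the low-coordinate side of LOXA, the nearest measured gene, LOC100262168, was 173 kb away, at 24.1 and 15.4 FPKM. Beyond it LOC100265516 stood at 4.59 and 8.89 FPKM and LOC100255221 at 2.04 and 12.1 FPKM, the latter being the only one of the 6 neighbours of LOXA past 2-fold and higher where LOXA was lower. On the other side LOC100265632 stood at 1.24 and 1.09 FPKM, LOC100245027 at 6.99 and 4.85 FPKM and LOC104879586 at 1.54 and 0.664 FPKM. The plain ratio of this last gene was 0.432, beside 0.489 for LOXA, at a far lower level. With the pseudocount its log2 ratio was -0.61, within 2-fold, beside -1.02 for LOXA. It reached an FPKM of 1 in the control only. The closest gene of any level, LOC109121418, is 6.43 kb from LOXA and has 9 exons like it. It held 2.15 control and 0 treated fragment equivalents, so no difference was detectable at this depth. LOC100260415, 10.5 kb away on the other side, had levels of 0.457 and 0.196 FPKM, under the limit for measured genes.

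**Figure D4:**
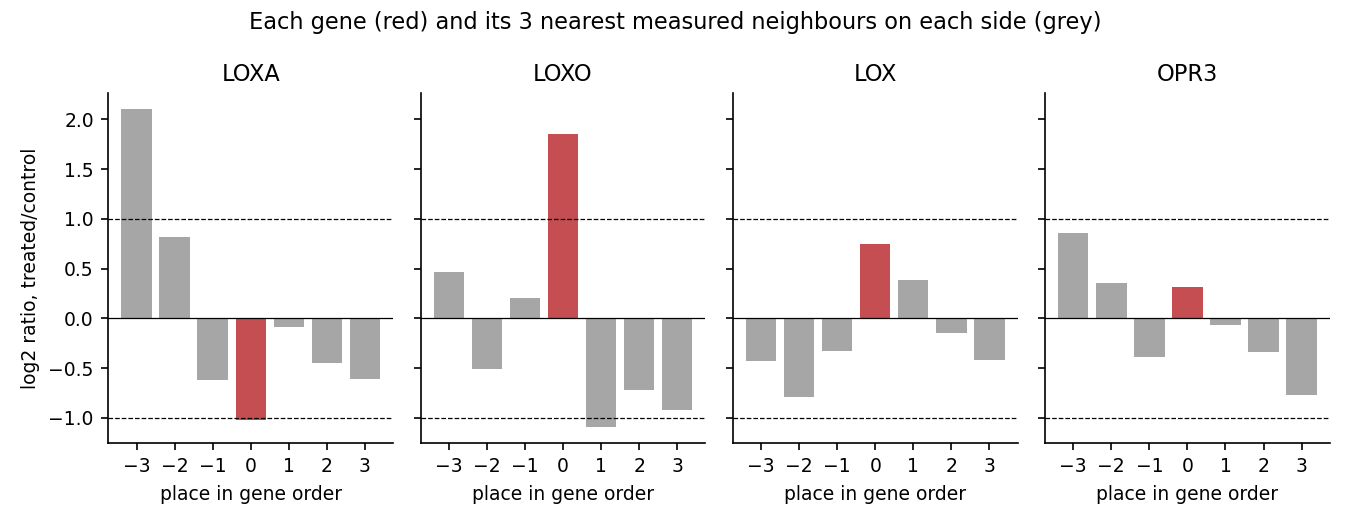
log2 ratio of treated to control (pseudocount of 1) for each gene, in red at place 0, and for its 3 nearest measured neighbours on each side in gene order, in grey; each bar is 1 ratio of 2 libraries and dashed lines mark 2-fold. Of the 24 neighbours, 1 near LOXA (2.10) and 1 near LOXO (-1.09) are past 2-fold, beside 6.26% of all measured genes higher and 3.66% lower.

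The gene next to LOX, LOC100252850, is 3.41 kb away on the same strand and has 9 exons as LOX does. Its levels were 0.549 and 1.03 FPKM, from 32.7 and 66.1 fragment equivalents. The plain ratio was 1.88, beside 1.93 for LOX, but the log2 ratio with the pseudocount was 0.39, beside 0.75 for LOX. This gene reached an FPKM of 1 in the treated library only and was named after its values were seen. Its likeness to LOX is therefore a description only. The files give no name for this gene. The other neighbours of LOX and the neighbours of OPR3 were all within 2-fold. LOC100245566, 11.3 kb from OPR3, had a ratio of 1.29 beside the 1.26 of OPR3, but the neighbours of OPR3 were mixed. Their log2 ratios ran from -0.77 to 0.86, and the nearest, LOC100257610 at 3.55 kb, had a ratio of 0.949.

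Few other genes of oxylipin synthesis and jasmonate response could be read by symbol, since 329 of the measured genes carry one. Of the listed symbols and synonyms, LOXD and MYC2 were in the tables beside the 4 genes, and no allene oxide synthase, allene oxide cyclase, hydroperoxide lyase or JAZ repressor was among them. Of 6 listed genes, 5 were measured, with 1 higher, 1 lower and a median log2 ratio of 0.32, beside 6.26% higher, 3.66% lower and a median of -0.28 over all measured genes. The higher and the lower gene are again LOXO and LOXA, so the list adds no further call. MYC2, a bHLH transcription factor of jasmonate responses in Arabidopsis, had levels of 19.4 and 14.2 FPKM, a ratio of 0.733 (0.654 to 0.821). Its log2 ratio of -0.42 was close to the median of all genes, 0.15 below it. LOXD, on an unplaced sequence and inside the span of LOC100251626 on the other strand, held 1.98 fragment equivalents in the control and none in the treated library. Both are under the 3 fragments that a count of 0 allows, or 0.142 and 0.132 FPKM for a transcript of its length, and no fold is given.

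By level in both libraries, the genes with a symbol that lay nearest to LOXO were CIPK02, of a family of calcium-regulated protein kinases, at 87.2 and 214 FPKM, and the hexose transporter HT5 at 45.5 and 284 FPKM. Those nearest to LOXA were NFD2 at 119 and 73.3 FPKM and PLD, a phospholipase D symbol, at 110.1 and 72.9 FPKM. These are distances over 2 libraries among 325 genes, from 0.35 to 0.56 on the log2 scale, and say only which levels lay nearest. The ratios differed: 2.46 for CIPK02 and 6.25 for HT5 beside 3.64 for LOXO. They were 0.616 for NFD2 and 0.662 for PLD, both within 2-fold, beside 0.489 for LOXA.

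The signs of all 4 differences were the same under each of 9 other ways of scaling or summing the values. Much of this was fixed in advance, because a change of pseudocount cannot turn a sign. Each rescaling multiplied treated values by a factor above 1 (1.02 to 1.25), which cannot turn the positive signs of LOXO, LOX and OPR3. The rescalings could have turned the sign of LOXA only. The most abundant transcript alone also gives the same value for LOXA, LOX and OPR3, which have a single model. LOXO was past 2-fold under all 9, between 1.79 and 2.17 on the log2 scale. LOXA was past 2-fold under 4 of the 9, with log2 ratios from -1.04 to -0.70. It was within 2-fold with treated values rescaled by the median (-0.70), trimmed mean (-0.71), upper quartile (-0.94) or total FPKM (-0.99). The same held with a pseudocount of 5 (-0.97). LOX was past 2-fold under 2 of them and OPR3 under none. In the authors' deposited table of gene values, which rests on the same aligned bases, the treated value was 3.63 times the control for LOXO, 0.489 times for LOXA, 1.93 times for LOX and 1.26 times for OPR3.

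**Figure D5:**
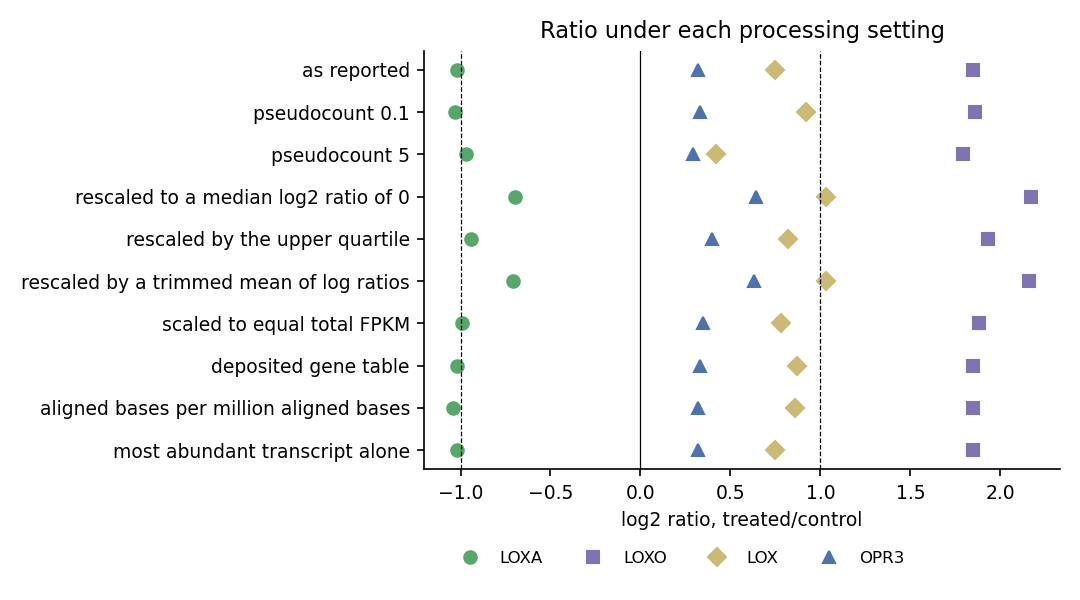
log2 ratio of treated to control for LOXA, LOXO, LOX and OPR3 (x axis) under the reported setting and 9 others (y axis); each point is 1 ratio of 2 libraries and dashed lines mark 2-fold. LOXO stays right of 1 throughout, LOXA lies between -1.04 and -0.70, and no point crosses 0.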

How the data were processed

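RNA-seq of 2 libraries was used. Per the submitters' processing notes, HISAT2 and HTSeq 0.6.1 were used, with no role given. The genome build was not given in the sources used here. Per the file headers, the authors' transcript tables hold mean coverage per base (an unscaled signal) and FPKM. The deposited gene values were treated as a score, because they were between 0.976 and 3.09 times the summed FPKM of the 4 genes, by a factor nearly equal in both libraries, and only their ratios were used.

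FPKM was summed per gene name with pandas 2.3.3 (Python 3.11.15). A gene was measured where it reached an FPKM of 1 in one library or both, and the pseudocount was 1. Fragment equivalents are coverage times length divided by 300, taken as pairs of 150-base reads: of single-transcript genes under 460 aligned bases, 37.0% of those in the control and 32.6% with the yeast held 300 after rounding. Intervals of a ratio are exact binomial 95% intervals (scipy 1.17.1), carried to the FPKM ratio by their relative width. Those of a ratio of 2 genes come from the log-scale standard error of the 4 counts. Each gene's chromosome was the one most symbols of its sequence have in the RefSeq table of assembly ASM3070453v1 (88.5% to 93.7% for the 4 genes). Ratios and intervals were tested on simulated independent counts only. The simulation held no PCR copies and no spread between samples, so it does not show how the intervals behave with these.

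The genes, lists and rules were chosen with earlier results of these data known. Named were the 4 genes, every listed oxylipin or jasmonate gene found, overlapping genes, the 3 nearest measured neighbours on each side of LOXA and LOXO, and the 2 symbols nearest in level to each. LOC109121418, LOC100260415, LOC100252850 and LOC100245566 were added after their values were seen. Protein and promoter sequences were not analysed here.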

Additional observations from a re-analysis of the deposited data

How the results depend on the processing

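No paired analysis was possible because the design is 1 library against 1, and no replicate could be left out. With a pseudocount of 5 the log2 ratio of LOXO was 1.79 and that of LOX 0.42. Rescaling to a median ratio of 0 multiplied treated values by 1.25 and gave -0.70 for LOXA, 2.17 for LOXO and 0.64 for OPR3. A trimmed mean of log ratios gave -0.71, 2.16 and 0.63 for the same genes, and the upper quartile gave -0.94 for LOXA and 1.93 for LOXO. Scaling to equal total FPKM was chosen after seeing the data and left LOXA at -0.99. LOXA lay so close to the 2-fold rule that small shifts of scale changed its call. Over all measured genes there were 1004 higher and 587 lower. A pseudocount of 0.1 gave 1251 higher and 1540 lower genes, and one of 5 gave 622 higher and 116 lower. With an FPKM of at least 10 there were 232 lower genes, and with the median or the trimmed mean rescaling 288. The higher share of these calls was 63.1%, 82.7% under either of these rescalings, and 44.8% with a pseudocount of 0.1, where lower genes were the majority. Counting 1 fragment equivalent as 150 bases narrowed the interval of LOXO to 3.54 to 3.74 and that of LOX to 1.68 to 2.22. Depth limits LOXD and LOC109121418, whose fragments were too few to compare.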
